A study of Mus musculus with 5 samples.

Results

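Single-cell RNA-seq libraries of photon-irradiated and non-irradiated mouse salivary gland organoids (mSGOs) were compared over the barcodes that held nuclear transcripts. mSGOs form when single cells of the mouse submandibular gland are embedded and expanded in a laminin-rich gel (Matrigel). Such barcodes were chosen as those with at least 1000 unique molecular identifiers (UMIs, which count captured transcripts), at most 5% of UMIs from mitochondrially encoded (mt-) genes and at least 1% from Malat1, a long non-coding RNA that stays in the nucleus. The rule kept 1010 barcodes of the control library and 1520 of the photon library, 2530 of the 72788 barcodes in the series.

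The control library came from non-irradiated mSGOs and the photon library from mSGOs given 7 Gy of photons on day 5, and both were collected on day 7. The proton library, given 7 Gy of protons on day 5, is set beside them where it adds a value. All 3 were C57BL/6 submandibular gland cells of animals aged 8 to 12 weeks, grown in the same medium with EGF, FGF2, Wnt3a- and R-spondin1-conditioned medium and the kinase inhibitor Y27632, and sorted as cells that excluded propidium iodide. Organoids derived from 4 animals and each condition gave 1 library, so animals are pooled, no difference could be tested, and a difference between conditions cannot be told apart from a difference between libraries. Intervals are 95% intervals for counting error. UMIs of a gene can sit together in few barcodes, and the intervals do not include that.

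Radiation breaks DNA, and the cell's answer runs through the p53 protein, which switches on genes for growth arrest, repair and cell death. Cells with damaged chromosomes can also carry DNA into the cytoplasm, where sensors start the type I interferon pathway and its STAT transcription factors turn on antiviral genes. Notch signalling, in which ligands on one cell activate a receptor on its neighbour and target genes such as Hes1, takes part in cell fate choices in gland ducts, whose basal and luminal cells are told apart by keratins.

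The member barcodes held 6881847 UMIs in the control and 8542245 in the photon library. Their median was 5981 UMIs and 1681 genes in the control and 4671.5 UMIs and 1442 genes in the photon library. The median Malat1 share was 4.77% and 6.89%, and the median mt- share 1.37% and 1.89%. Members made up 37.3% (35.5 to 39.1%) of the control barcodes that passed the UMI and mt- limits and 13.6% (12.9 to 14.2%) of those of the photon library, so a larger share of the photon barcodes held little nuclear transcript. Few barcodes lay at the Malat1 limit: 7 control and 8 photon barcodes had a share from 1 to 1.1%, and 13 and 16 had one from 0.9 to 1%. The control and photon libraries shared 33 deposited barcode sequences, of which 1 was a member in both.

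The members carried the markers of duct epithelium. Krt14, a basal keratin, was at 5123 CPM (UMIs scaled to a common library total) in the control and 4881 CPM in the photon library, and Krt5, its partner, at 2083 and 2086 CPM. Epcam, an epithelial adhesion molecule, was at 839 and 752 CPM. Of 23 immune cell markers 17 had no UMI in either library, including Ptprc, the common leukocyte antigen, and of 12 fibroblast and endothelial markers 8 had none. The 3 immune markers with at least 10 UMIs were Cd68, Cd14 and H2-Ab1, whose summed level was 38.7 CPM in the control and 50.3 CPM in the photon library. Cd68 (17.3 and 32.5 CPM) and Cd14 (4.07 and 7.26 CPM) were higher in the photon library and H2-Ab1 (17.3 and 10.5 CPM) was lower. Their part in the results was not tested.

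Across all genes the libraries differed little. Of 9100 genes with at least 50 UMIs over both libraries, 88.9% had a log2 ratio of photon over control within 0.5 of 0 (CPM with a pseudocount of 1 CPM), and the median was 0.07. A gene was counted as higher or lower when its log2 ratio was at least 0.5 away from 0 and its interval lay on that side of 0. By this rule 614 genes (6.75%) were higher in the photon library and 294 (3.23%) were lower. Scaling by the median of ratios moves a log2 ratio by -0.07, and by less for low genes because of the pseudocount, and it gave 472 higher and 398 lower genes. The plot of all genes shows the changed genes around this narrow centre.

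**Figure D1:**
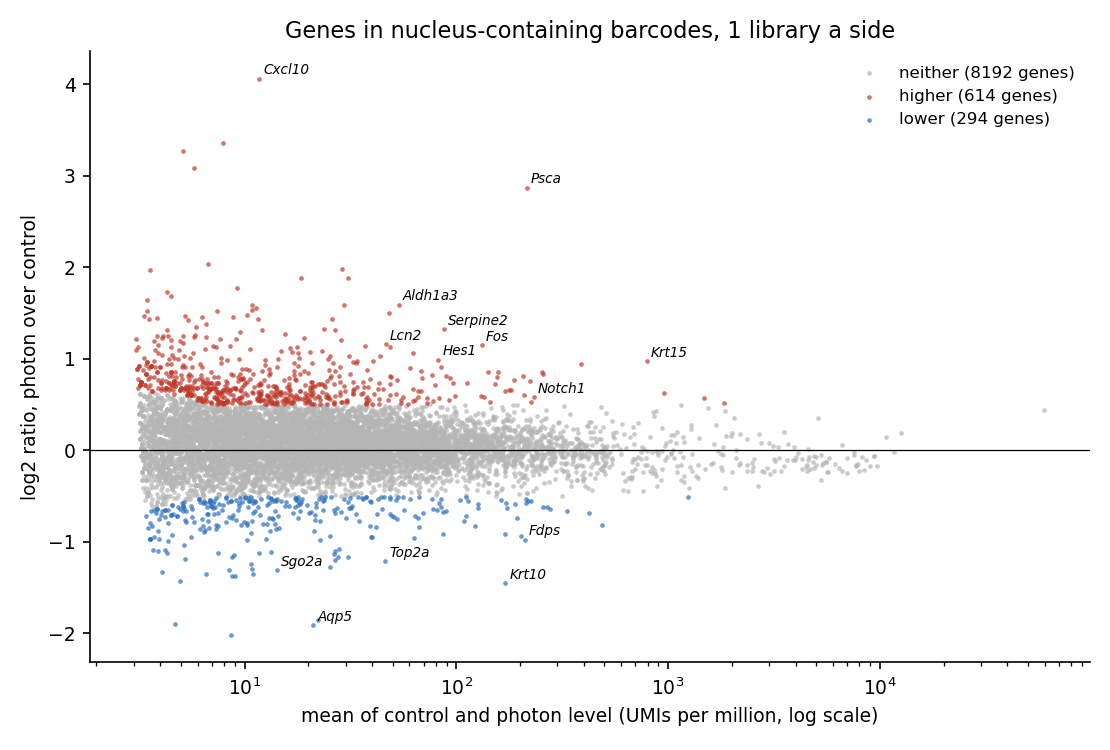
Log2 ratio of photon over control (y axis) against the mean level of the libraries in CPM (x axis, log scale), 1 point per gene for 9100 genes. Red points are the 614 genes counted as higher, blue points the 294 counted as lower and grey points the rest. Cxcl10 and Psca stand highest among the labelled genes and Aqp5 lowest, and most genes lie within 0.5 of 0.

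Many interferon response genes were higher in the photon library. Of 55 listed members 48 had at least 10 UMIs over both libraries, and of these 29 were higher and 1 was lower, against 6.75% and 3.23% of all genes, with a median log2 ratio of 0.70 against 0.07. Of the 48, 16 had under 10 UMIs in the control and passed the minimum only with their photon UMIs, so they could hardly come out lower, and 12 of the 29 higher genes were among them. The number higher fell to 14 when the Malat1 minimum was 5%, 12 with a pseudocount of 10 CPM and 7 in barcodes thinned to 1000 UMIs. Among the 34 antiviral effectors 23 were higher and none was lower. Isg15, a ubiquitin-like protein that is conjugated to other proteins in antiviral defence, went from 12.5 CPM (86 UMIs) to 48.8 CPM (417 UMIs), a log2 ratio of 1.88 (1.57 to 2.21). Ifit1, which binds foreign RNA, went from 4 to 130 UMIs (log2 ratio 3.36, 2.66 to 3.84). Rsad2, which encodes viperin, went from 3 to 95 UMIs (3.08), and Ifit3 from 1 to 86 UMIs (3.27), although reads of Ifit3 and its near copy Ifit3b may have been split by the counting. The Rsad2 and Ifit3 ratios rested on few barcodes. The 10 richest photon barcodes held 92.6% of the Rsad2 UMIs and 93.0% of the Ifit3 UMIs, and outside the 10 richest of each library 7 and 6 UMIs remained in the photon library and none in the control. For Ifit1 39 UMIs remained in the photon library and none in the control.

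Of 7 members of the signalling step 4 were higher and none was lower, against 6.75% and 3.23% of all genes. Stat2, a transcription factor of the pathway, was at 3.49 CPM in the control and at 9.60 CPM in the photon library. Irf7, which amplifies interferon production, was at 6.83 and 12.4 CPM, whereas the receptor subunits Ifnar1 and Ifnar2 had log2 ratios of 0.38 and 0.40 and neither was counted as changed. Of 7 sensors, which recognise foreign or displaced nucleic acid, 2 were counted as higher and 1 as lower, against the same shares. Ifih1 went from 30 to 65 UMIs, and Zbp1 from 2 to 16 UMIs, of which 3 remained outside the 10 richest photon barcodes. Zbp1 passed the minimum of 10 UMIs only with its photon UMIs. The 1 lower member was Tmem173, which encodes the cytosolic DNA pathway adaptor STING, at 16.6 CPM in the control and 9.48 CPM in the photon library (log2 ratio -0.74, -1.14 to -0.35). Mb21d1, the DNA sensor cGAS, was at 5.23 and 3.86 CPM and was not counted.

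Promoter sequences are shown for 4 higher members that hold the paired GAAA of the interferon-stimulated response element. The motif was searched as a pair of GAAA separated by any 2 bases, on both strands. The window was the 250 bases before the start in RefSeq promoters (GRCm38.p6). In these 4 stretches the matched bases are in capitals, on the strand of the gene, with overlapping matches run together, and a pair of TTTC is the motif on the other strand.
Isg15 (chr4:156200860-156200911, minus strand): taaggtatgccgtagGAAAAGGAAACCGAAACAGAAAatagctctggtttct
Ifit1 (chr19:34640770-34640828, plus strand): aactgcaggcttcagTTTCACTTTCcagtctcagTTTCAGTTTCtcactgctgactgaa
Ifit3 (chr19:34583358-34583431, plus strand): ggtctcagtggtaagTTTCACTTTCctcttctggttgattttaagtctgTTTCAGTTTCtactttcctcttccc
Rsad2 (chr12:26456548-26456587, minus strand): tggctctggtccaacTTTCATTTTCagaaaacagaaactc

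A promoter was found for 36 of the 48 interferon members. Of these, 11 (30.6%) held the motif, against 3.46% of the 27025 genes with a promoter and 2.93% of the compared genes. Several of the 11, among them Ifit1, Ifit3 and Rsad2, had under 10 UMIs in the control. They passed the minimum only with their photon UMIs, so the share describes the members used. The match describes letters in the sequence and not a bound site.

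Part of the interferon signal sat in few barcodes. Leaving Ifitm3, Isg20 and Ifi27, the most abundant members, out of the sum, the list's level was 272 CPM in the control and 502 CPM in the photon library. The 10 richest barcodes held 12.2% of these UMIs in the control and 23.4% in the photon library. The richest photon barcode held 441 of these UMIs and the next 222, while the richest control barcode held 42. The richest photon barcode also held Krt5 (49 UMIs), Krt14 (38) and Epcam (16), so it carried epithelial transcripts. Without the 10 richest barcodes of each library the sums were 245 and 390 CPM. In the same setting 19 of the 48 members were higher and 1 was lower, the median log2 ratio was 0.57, and the middle of the members' interval bounds ran from -0.05 to 1.02. Without the barcodes that, thinned to 1000 UMIs, held at least 3 G2/M genes, 18 were higher. Thus part of the count rested on few barcodes, and part did not.

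Cxcl10, a chemokine induced by interferon, sat in few barcodes. It went from 3 UMIs in the control to 196 in the photon library, a ratio of 52.6 (17.7 to 257), yet 120 of the 196 UMIs were in 1 barcode. Only 21 photon barcodes held any, and without the 10 richest of each library 11 UMIs remained in the photon library and none in the control. In the proton library Cxcl10 was at 4.62 CPM, against 22.9 CPM in the photon library. The plot of cumulative UMIs sets these genes against evenly spread ones.

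**Figure D2:**
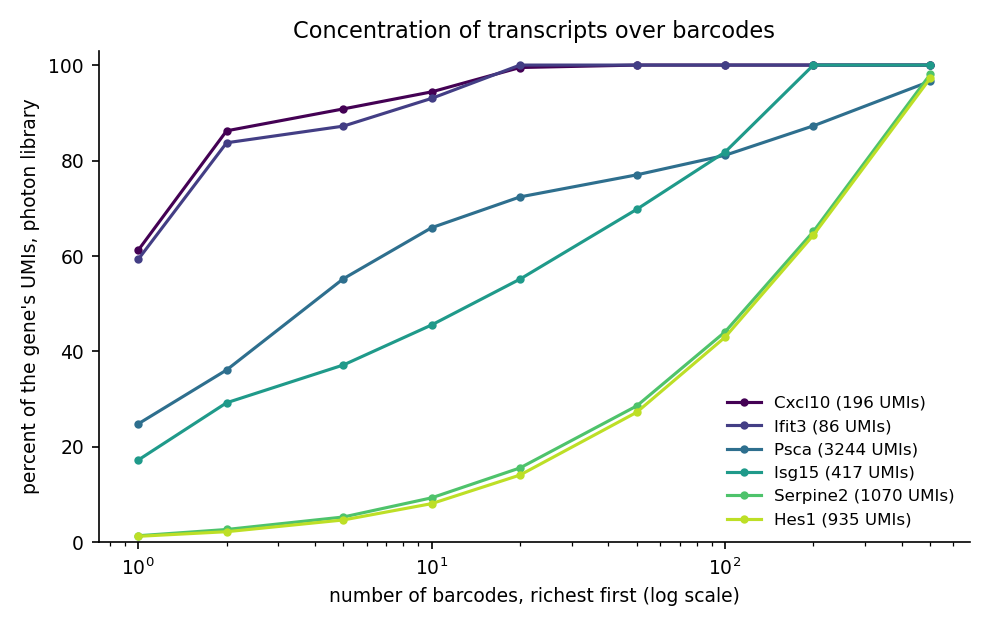
Percent of a gene's UMIs in the photon library (y axis) held by its richest barcodes (x axis, number of barcodes, log scale), 1 line per gene with its total UMIs in the legend. Cxcl10 and Ifit3 have over 90% of their UMIs in 10 barcodes, Psca has 65.9%, and Hes1 and Serpine2 have under 10%.

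Some targets of p53 were higher. Of 37 members 15 were higher and none was lower, against 6.75% and 3.23% of all genes, 22 were not counted as changed, and the median log2 ratio was 0.33. Of the 37, 1 had under 10 UMIs in the control, passed the minimum only with its photon UMIs and was among the 15. The number higher fell to 8 with a pseudocount of 10 CPM, 8 in barcodes thinned to 1000 UMIs and 7 in barcodes with at least 2500 detected genes, where 1 member was lower. Ccng1, a cyclin G that feeds back on p53, was at 112 CPM in the control and 203 CPM in the photon library (log2 ratio 0.86). Eda2r, a receptor that can induce cell death, was at 3.34 and 8.08 CPM (1.06, 0.49 to 1.64), and Fas, a death receptor, at 3.63 and 7.73 CPM. Trp53inp1, which promotes p53-dependent cell death, was at 58.3 and 110.4 CPM, and Bax, which permeabilises mitochondria, at 108 and 162 CPM. Mdm2, the ubiquitin ligase that limits p53, was at 58.3 and 87.0 CPM (0.57).

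Other targets with the same textbook link to p53 were not counted as changed. Cdkn1a, the p21 inhibitor of cyclin-dependent kinases, was at 582 CPM in the control and 657 CPM in the photon library, a log2 ratio of 0.18 (0.12 to 0.23), and stood at 786 CPM in the proton library. The cell death genes Bbc3 and Pmaip1, which encode PUMA and NOXA, had log2 ratios of -0.34 and 0.02. Of 32 genes of DNA damage signalling and repair 2 were higher and none was lower, against 6.75% and 3.23% of all genes, and the median log2 ratio was 0.06 against 0.07. Prkdc, a kinase of DNA end joining, was 1 of the 2, on 15 and 37 UMIs, and its log2 ratio was -0.018 when the Malat1 minimum was 5%. The plot of the lists shows how far each group lies from that median.

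**Figure D3:**
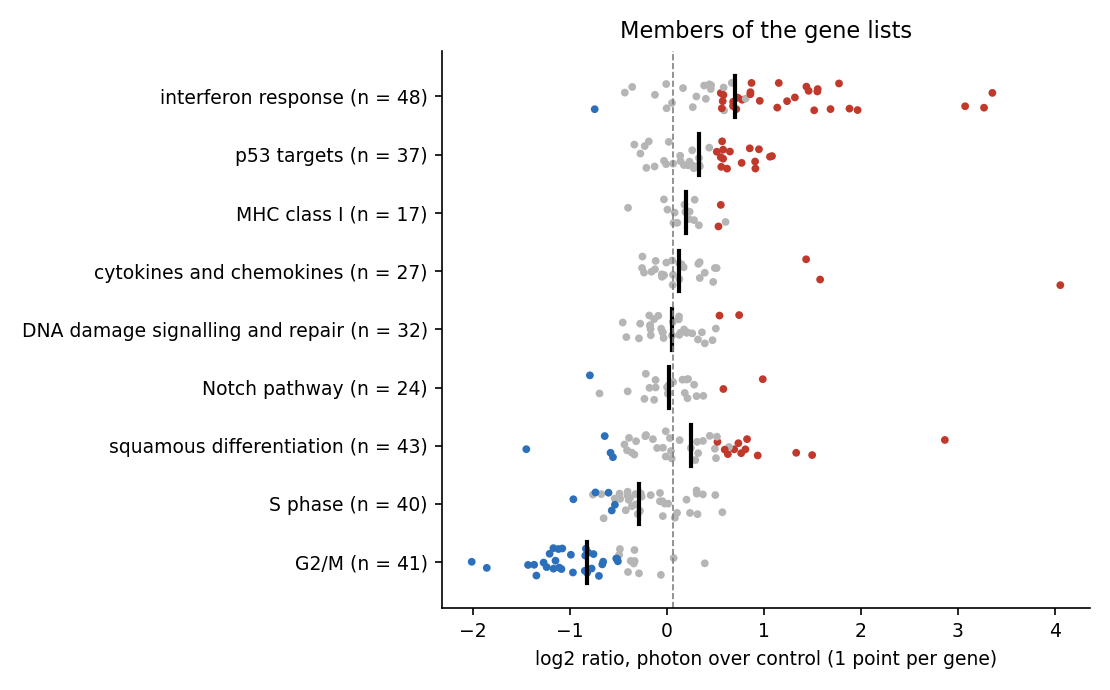
Log2 ratio of photon over control for each used member of 9 gene lists, 1 point per gene, red where counted as higher and blue where lower, with the number of members in the axis label. The black bar is the list's median and the dashed line the median of all genes, 0.07. The interferon and p53 lists lie to the right, G2/M lies to the left, and Notch is centred near 0.

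Most genes of the G2 and M phases were lower in the photon library. Of 41 members 30 were lower and none was higher, and the median log2 ratio was -0.82, against 3.23% of all genes lower. Of the 41, 1 had under 10 UMIs in the photon library and was among the 30 lower genes. The number lower fell to 22 in barcodes with under 2500 detected genes, 16 with a pseudocount of 10 CPM, 15 in barcodes thinned to 1000 UMIs and 9 without the barcodes that held at least 3 G2/M genes after thinning. Mki67, a marker of cycling cells, was at 35.3 CPM in the control and 9.01 CPM in the photon library (log2 ratio -1.86, -2.21 to -1.51). Top2a, which untangles chromosomes, was at 65.0 and 27.5 CPM (-1.21), and Ccna2, cyclin A2, at 14.4 and 2.81 CPM (-2.01). In the proton library they were at 9.72, 26.9 and 4.01 CPM.

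The regulators and the machinery of mitosis both took part. Of 13 regulators 11 were lower, against 3.23% of all genes. Among them were Ccnb1 (cyclin B1, 16.4 and 7.02 CPM) and Aurka (Aurora kinase A, 13.1 and 4.45 CPM). Of 28 chromatin and spindle genes 19 were lower, against the same share. Among these, Birc5, which encodes survivin, and Cenpf, a kinetochore protein, were at 43.2 and 38.7 CPM in the control. In the photon library they were at 18.6 and 16.6 CPM. Pttg1 and Arl6ip1 lay above 0. Pttg1, securin, was at 24.8 and 32.9 CPM and Arl6ip1 at 226 and 237 CPM, and neither was counted as changed.

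The promoters of 3 lower members are shown for the CCAAT box and the cell cycle homology region, searched as TTTGAA, which are known in promoters of such genes. Both were searched on both strands and are in capitals, and ATTGG is CCAAT on the other strand. Of the 3 stretches only that of Mki67 holds TTTGAA.
Mki67 (chr7:135716457-135716582, minus strand): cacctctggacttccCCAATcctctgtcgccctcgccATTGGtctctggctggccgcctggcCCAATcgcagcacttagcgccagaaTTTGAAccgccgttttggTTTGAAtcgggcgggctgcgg
Ccnb1 (chr13:100786534-100786600, minus strand): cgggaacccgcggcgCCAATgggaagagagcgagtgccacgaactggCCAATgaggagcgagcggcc
Cenpf (chr1:189688138-189688233, minus strand): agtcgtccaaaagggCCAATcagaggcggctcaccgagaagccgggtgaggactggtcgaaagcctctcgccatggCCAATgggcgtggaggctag

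Of 34 G2/M members with a promoter, 29 (85.3%) held CCAAT and 14 (41.2%) held TTTGAA, against 40.4% and 12.2% of the compared genes. Over all genes 3.23% were lower. Of the members with CCAAT 21 were lower with a median log2 ratio of -0.84, and of the 5 without it 4 were lower with a median of -0.76. Of the 14 with TTTGAA 9 were lower with a median of -0.59, and of the 20 without it 16 were lower with a median of -0.84. Among S phase genes 19 of 32 (59.4%) held CCAAT and 4 (12.5%) held TTTGAA.

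A few S phase genes were lower. Of 40 members 5 were lower and none was higher, against 3.23% and 6.75% of all genes, with a median log2 ratio of -0.29. The lower ones were Pola1 and Prim1 of the polymerase that starts DNA strands, Hells, a chromatin remodeller, Tk1, a thymidine kinase, and Clspn, which works at stalled forks. The number lower was 1 with a pseudocount of 10 CPM and 3 with doublets removed. It was 3 in barcodes thinned to 1000 UMIs, where 1 was higher, and 7 in barcodes with under 2500 detected genes, where 2 were higher. Rrm1, a subunit of ribonucleotide reductase, was at 62.0 and 88.2 CPM and fell just short of the limit for higher.

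The share of barcodes with G2/M transcripts was also lower. With every barcode thinned to 1000 UMIs, 84 of 1010 control barcodes (8.32%, 6.69 to 10.2%) and 78 of 1520 photon barcodes (5.13%, 4.08 to 6.36%) held UMIs of at least 3 genes of the list. The difference was -3.19 percentage points (-5.34 to -1.14). It was -5.69 (-12.2 to 0.46) in barcodes with at least 2500 detected genes, where the interval includes 0. With at least 5 genes in all UMIs it was -9.23. Without thinning the shares were 55.9% and 44.3%, which follow depth as well. In the thinned class the list's level was 8279 CPM in the control and 5469 CPM in the photon library, and in all other barcodes it was 647 and 688 CPM. The class was cut from the list's own counts, so its level describes these barcodes and is no separate evidence. The part of free RNA in the low counts was not tested.

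In the Notch pathway the shares of changed genes were near those of all genes. Of 32 listed members 24 had at least 10 UMIs, and of these 2 were higher and 1 was lower, against 6.75% and 3.23% of all genes, with a median log2 ratio of 0.02. Hes1, the transcriptional repressor that Notch induces, was at 54.6 CPM (376 UMIs) in the control and 109 CPM (935 UMIs) in the photon library, a log2 ratio of 0.99 (0.82 to 1.16). Its UMIs were spread widely, with 8.13% in the 10 richest photon barcodes, and without those of each library the ratio was 1.12. Notch1, the receptor, was at 185 and 278 CPM (0.58, 0.48 to 0.68).

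The other receptors and the ligands were not counted as changed. Notch2 and Notch3 had log2 ratios of -0.40 and -0.23. Of the ligands, Jag1 was at 67.1 and 83.2 CPM (0.31), Jag2 at 74.8 and 75.4 CPM and Dll1 at 10.2 and 10.3 CPM, and none was counted. Nrarp, another Notch target, was at 57.0 and 63.8 CPM (0.16), and Rfng, a fringe enzyme that modifies the receptors, was the member counted as lower, on 33 and 20 UMIs. In the proton library Hes1 was at 109 CPM and Notch1 at 323 CPM.

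Sox9 and Hmga2, which the study also names, were counted as higher. Sox9, a transcription factor of progenitor cells, was at 113 and 197 CPM (log2 ratio 0.80, 0.67 to 0.92). Hmga2, a chromatin protein active in growing tissue, was at 150 and 264 CPM (0.81, 0.70 to 0.92) and at 201 CPM in the proton library. Of the other genes by which the study names progenitor populations, Itgb1, Cd44, Cd24a and Cd164 had log2 ratios of 0.26, 0.17, 0.07 and 0.05 and Trp63 one of -0.21, none past the limit.

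**Figure D4:**
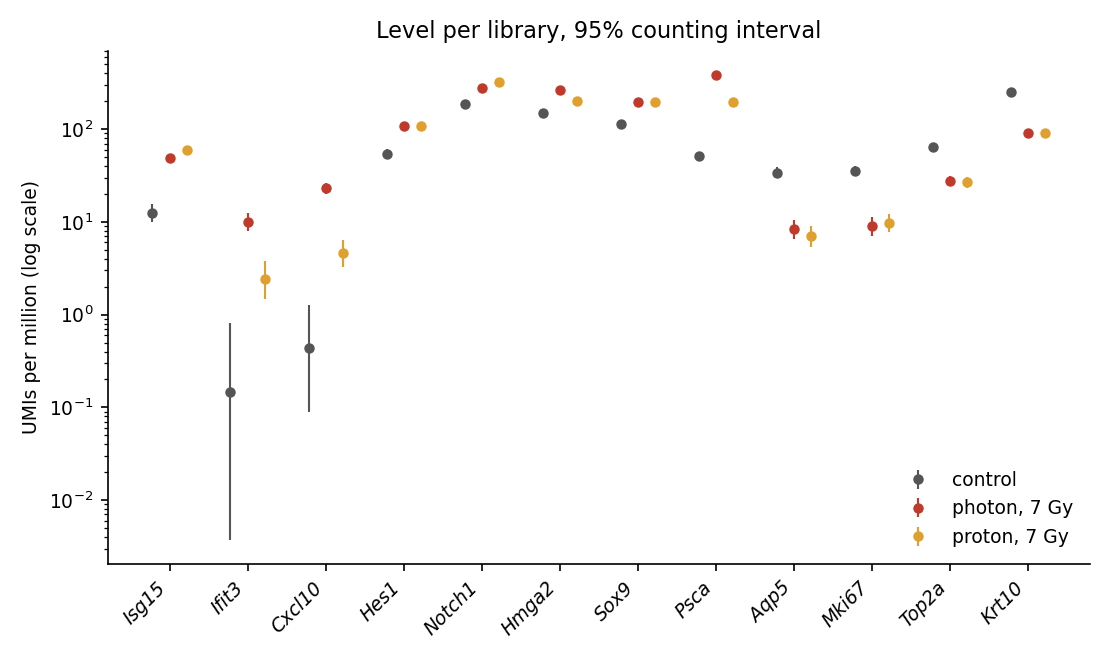
Level of 12 genes in CPM (y axis, log scale) in the control (grey), photon (red) and proton (yellow) libraries, 1 point per library with its 95% counting interval. Interferon genes, Hes1, Notch1, Hmga2, Sox9 and Psca stand higher in the photon library than in the control, and Aqp5, Mki67, Top2a and Krt10 stand lower.

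Of the duct markers Krt15 and Cldn3 were counted as changed. Krt15, a keratin of basal and progenitor cells, was at 533 CPM in the control and 1051 CPM in the photon library (log2 ratio 0.98, 0.92 to 1.03), the 1 higher gene of 10 basal markers, against 6.75% of all genes. Of 12 luminal markers none was higher, Cldn3, a tight junction protein, was lower at 35.5 and 21.8 CPM, against 3.23% of all genes, and the median was -0.23. Krt8 was at 177 and 129 CPM and Krt7 at 857 and 1013 CPM. Aqp5, the water channel of acinar cells, was at 34.0 CPM (234 UMIs) and 8.31 CPM (71 UMIs), a log2 ratio of -1.91 (-2.27 to -1.55), and at 7.05 CPM in the proton library. In such sums fewer cells of a type and less RNA per cell cannot be told apart. Of 14 acinar markers 6 had 10 UMIs or more, 6 had none, and Aqp5 was the only one of those 6 counted as changed. Of 11 listed myoepithelial markers 3 had 10 UMIs or more and 3 had none. Of the 3 used, Lgals7 and Csrp1 were lower and Sparc was not. Markers of contraction such as Acta2 were not among the 3 used.

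Squamous differentiation genes moved in both directions. Of 54 listed members 43 had at least 10 UMIs, and of these 12 were higher and 4 were lower, against 6.75% and 3.23% of all genes, with a median log2 ratio of 0.25. Of the 43, 4 had under 10 UMIs in the control, and 2 of the 12 higher genes were among them. With equal weight for every barcode 7 were higher and 6 were lower, with a median of 0.03. The intervals in that setting were still those of the summed UMIs. In barcodes thinned to 1000 UMIs 5 were higher and 5 were lower. Higher genes did not outnumber lower ones in the same proportion in these settings. Psca, prostate stem cell antigen, a cell surface protein of stratified epithelium, was at 51.1 CPM (352 UMIs) in the control and 380 CPM (3244 UMIs) in the photon library, a log2 ratio of 2.87 (2.71 to 3.03). The richest barcode held 806 of these UMIs, 24.8%, and without the 10 richest of each library the ratio was 1.94 (1.74 to 2.14). Sprr2i, a cornified envelope protein, was at 24.7 and 71.6 CPM (log2 ratio 1.5), but without the 10 richest barcodes it was 0.47, under the limit. The Sprr2 genes are near copies, so their counts may be split. Krt10, a keratin of differentiated layers, was at 249 and 90.6 CPM (-1.45, -1.57 to -1.33), and Sprr1b at 336 and 215 CPM (-0.64).

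Several other genes were among the most changed. Aldh1a3, a retinal dehydrogenase, was at 26.2 and 80.8 CPM (log2 ratio 1.59), and Serpine2, a protease inhibitor, at 49.4 and 125 CPM (1.32). Lcn2, an iron-binding defence protein, was at 28.3 and 64.6 CPM (1.16), and Fos, the immediate early transcription factor, at 81.7 and 182 CPM (1.14). Among the lower genes, Fdps, an enzyme of isoprenoid synthesis, was at 280 and 142 CPM (-0.98), and Insig1, which restrains sterol synthesis, at 36.6 and 16.2 CPM (-1.13).

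Aldh1a3 was at 36.1 CPM in the proton library, against 80.8 CPM for photons, and Sprr2i at 31.7 against 71.6 CPM, whereas Serpine2 was at 133 against 125 CPM.

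Irradiation with protons gave another irradiated library, which was set against the same control, so its contrast shares the control values. Of 8962 genes compared 5.32% were higher and 4.14% were lower there. Its list medians, over 1347 member barcodes, were 0.60 for the interferon response, 0.38 for p53 targets, -0.86 for G2/M, -0.48 for S phase and 0.04 for the Notch pathway, against 0.70, 0.33, -0.82, -0.29 and 0.02 for photons. Psca was at 196 CPM in the proton library, between the control (51.1) and photon (380) levels. Ifit1 was at 14.9 CPM with protons and 15.2 CPM with photons, whereas Ifit3 was at 2.43 and 10.1 CPM. The share of thinned barcodes with at least 3 G2/M genes was 4.97% (3.88 to 6.27%) in the proton library.

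The same values by barcode size describe parts of the barcodes already compared. In barcodes with 1000 to 3000, 3000 to 8000 and from 8000 UMIs, the log2 ratio was 2.28, 1.95 and 1.93 for Isg15, 0.87, 0.79 and 1.15 for Hes1, and 0.99, 0.97 and 1.06 for Krt15. Sox9 had 0.27, 0.88 and 0.84, and Notch1 0.39, 0.39 and 0.58, so neither was past 0.5 in every class. For Top2a the values were -1.10, -1.17 and -1.23. Psca was highest in the largest barcodes, with 1.99, 1.44 and 3.82, and Sprr2i changed sign, with 1.05, -0.64 and 2.35. The classes held 223, 456 and 331 control barcodes and 534, 634 and 352 photon barcodes.

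The counts of other lists stand against 6.75% higher and 3.23% lower of all genes. The nuclear respiratory chain had no changed gene among 29, with a median log2 ratio of -0.04. Of 21 heat shock and chaperone genes, Hspa1a and Hspa1b were lower, at 36.9 and 110 CPM in the control and 16.7 and 68.7 CPM in the photon library. Of 30 hypoxia and glycolysis genes 5 were lower and none higher, among them Ankrd37 and Adm. Of 17 MHC class I genes Tap1 and Psmb8, which produce and carry peptides, were higher. Of 25 immediate early genes Fos and Fosb were higher, and Ier2, Egr3, Socs3 and Nr4a1 were lower.

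The same contrast in the other barcodes of these libraries, with a Malat1 share under 1%, gave a wider spread. They numbered 1698 in the control and 9674 in the photon library, with median UMIs of 3618.5 and 1198, so the sides differ in depth. There 29.5% of 9081 genes were higher and 3.74% lower, with a median log2 ratio of 0.25. The interferon and p53 medians were 0.89 and 0.55 there against 0.25 for all genes, whereas in the nucleus-containing barcodes they were 0.70 and 0.33 against 0.07. The G2/M median was -0.34. The difference between the barcode classes was not tested.

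**Figure D5:**
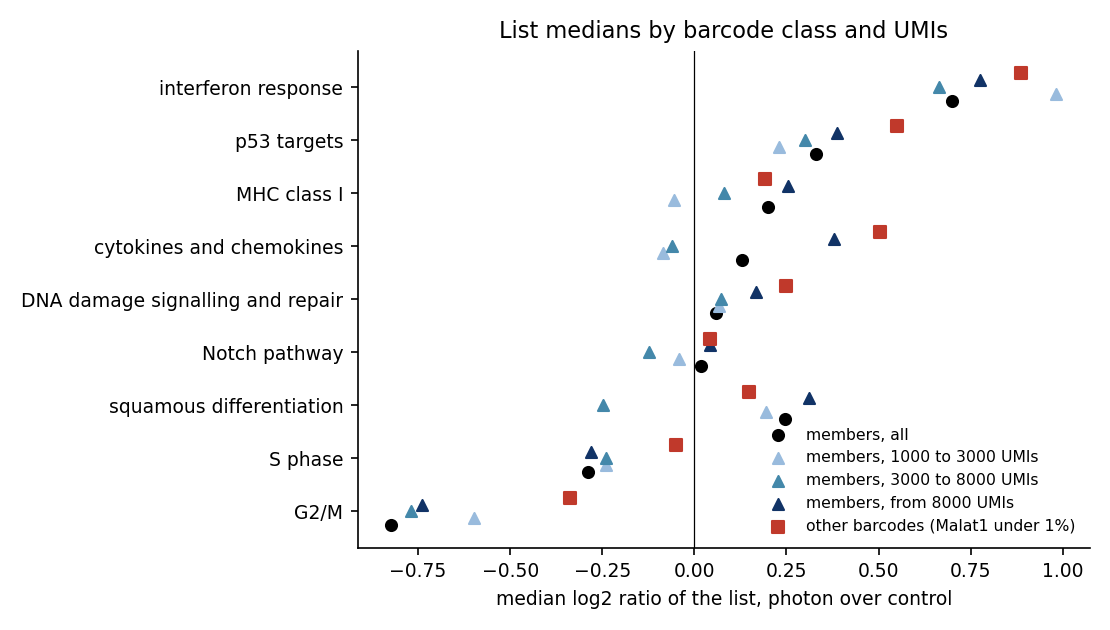
Median log2 ratio of photon over control for 9 gene lists (y axis) in all nucleus-containing barcodes (black), in 3 classes of these barcodes by UMIs (triangles) and in the other barcodes with a Malat1 share under 1% (red squares). The interferon medians are all above 0.5 and the G2/M medians of the nucleus-containing classes all below -0.5.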

How the data were processed

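The authors deposited whole-number UMI counts per gene and barcode, 10x Genomics 3′ data made per the labels with Cell Ranger 5 and mm10. The study's methods name GRCm39 and the file headers of these libraries name no build, so gene positions and promoters are RefSeq GRCm38.p6, matched by symbol (8847 of 9100 genes). UMIs of member barcodes were summed per gene and divided by the library total. Counts give exact binomial intervals for ratios, Poisson for CPM and Clopper-Pearson for shares, all at 95% and for counting error only. List members needed 10 UMIs over both libraries. Named genes were those the study names, the 15 highest and 15 lowest by interval bound among genes with 50 UMIs and 20 CPM in the higher library (1 unnamed clone left out, and Malat1 and mt- genes), and the 2 highest and 2 lowest of each list. Members and gene lists were chosen with earlier results of these data known. Doublets stayed in, and an alternative removed the highest Scrublet scores (scanpy 1.11.5). The calculations were tested on simulated data. A total of 32 lists were used, and 1 more chosen after its values were seen. Lists not described in the text, with members counted as higher and lower, are in the closing section, except that some genes and 1 list are not reported here.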

Additional observations from a re-analysis of the deposited data

Results flagged for a closer look

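In 3 genes named by the study the log2 ratio of photon over control had opposite signs in the nucleus-containing barcodes and in the other barcodes of the same libraries, with counting intervals on opposite sides of 0. The difference itself was not tested, and the other barcodes differed in median UMIs between the libraries. The median log2 ratio of all genes was 0.25 in the other barcodes and 0.07 in the nucleus-containing ones, so the values of Trp63 and Top2a in the other barcodes were near the median there. Jag1 had 0.31 in the nucleus-containing barcodes and -0.61 in the others. Trp63 had -0.21 and 0.31, and Top2a had -1.21 and 0.31.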

How the results depend on the processing

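With 1 library per group no replicate could be left out. No paired analysis was possible because each group had 1 library. Of 23 alternatives, 3 of them chosen after the data were seen, 18 gave the S phase, interferon and p53 medians and 17 the G2/M median, and in these each kept its sign. The Notch median lay between -0.10 and 0.11. Genes counted as higher and lower numbered 164 and 92 with a pseudocount of 10 CPM, 249 and 190 with barcodes thinned to 1000 UMIs, and 266 and 142 with at least 200 UMIs per gene, where fewer genes are compared. The difference in barcodes with G2/M transcripts was -5.69 percentage points (-12.2 to 0.46) with at least 2500 detected genes and -9.23 with at least 5 genes in all UMIs. Of 70 named genes counted as changed, 68 kept their sign in all alternatives run for them. The others were Prkdc, -0.018 when the Malat1 minimum was 5%, and Hmmr, 0.23 without G2/M barcodes, and the cause was not tested. Interferon genes counted as higher ranged down to 7 of 48, and p53 targets to 8 of 37, in thinned barcodes, where fewer have enough UMIs, and p53 targets to 7 with at least 2500 detected genes. G2/M barcodes could not be computed at a minimum of 500 UMIs, which is under the thinning depth.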

Other observations

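Some genes of cholesterol synthesis were lower in the photon library. This list was chosen after its values were seen, so its count is a description. Of 25 members 11 were lower, none was higher and 14 were not counted as changed, against 3.23% lower and 6.75% higher of all genes, and the median log2 ratio was -0.39, against 0.07 over all genes. Of 8 enzymes of the mevalonate route, which builds the precursors of sterols, 5 were lower. Idi1 was at 158 CPM in the control and 88.5 CPM in the photon library (log2 ratio -0.83), and Pmvk at 138 and 80.2 CPM (-0.78). Among sterol enzymes Cyp51 was at 210 and 135 CPM (-0.63).

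Of all genes 6.75% were higher and 3.23% were lower, and several of the remaining lists were near these shares. Of 25 adhesion and basement membrane genes 4 were higher, among them Itgb6 at 11.6 and 18.1 CPM, and Plaur was lower. Of 22 antioxidant and iron genes Slc7a11, Srxn1 and Gsto1 were higher, and Nqo1 and Sod1 were lower. Of 16 senescence genes Lmnb1, Hmgb2 and Plaur were lower and none was higher. Of 27 cytokines and chemokines 3 were higher, Cxcl3 among them, at 14.2 and 44.6 CPM. The 10 richest photon barcodes held 58.5% of the Cxcl3 UMIs, and without those of each library its log2 ratio was 1.43. Another was Cxcl10, with 3 UMIs in the control, which passed the minimum of 10 UMIs only with its photon UMIs. Of 10 epithelial-mesenchymal genes 3 were higher. Of 6 nuclear-retained RNAs Mir17hg and Pvt1 were higher. Of the Wnt (29), EGF receptor (20) and apoptosis (15) lists, 1 member each was counted, lower in Wnt and higher in the others. Both stem/progenitor lists, with 4 and 7 members used, held 1 higher gene. No member was counted in the epithelial check (6), the snoRNA hosts (5) or among fibroblast and endothelial markers, of which 1 was used.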
